A study of Gallus gallus with 2 samples.

Results

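The right flank of the captured DACT2-SMOC2 locus, chromosome 3 from 42.94 Mb to 43.60 Mb in the coordinates of the deposited lists, was described by the pairs of restriction fragments found close together inside it. A member was a pair of fragments listed in at least 1 library, with both midpoints between 42940001 and 43610000, that were not neighbours in the numbering of all 6569 fragments of the locus. There were 10493 members in the interzone library, of 94492 such pairs over the whole locus, and 6957 of 65117 in the phalange library. Counted over both libraries, 15195 different pairs of 146631 were members. The start of the flank had been chosen by the insulation score and the contacts of these same lists, so contacts inside it are a description and were not tested against the rest. At the limit, the last 10 kb bin outside it was in 409 interzone and 248 phalange pairs of 20 kb or more, and the first bin inside in 317 and 213.

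Contacts were measured by low-input targeted chromatin capture (T2C), in which cross-linked chromatin is cut with the restriction enzyme ApoI, nearby ends are joined, and the joined molecules of the locus are enriched with baits and sequenced in pairs. The samples came from White Leghorn chick embryos after 7.5 days of incubation, at Hamburger-Hamilton stage HH32. The interzone group was the tissue of the future joint in hindlimb digit 3, and the phalange group the cartilage element beside it, and the labels name no treatment or altered genotype for either. Each group was 1 library made from 100 pooled specimens, so every value below has no replicate error. Pooling also means that differences between embryos cannot be seen, and no expression was measured by which the tissue labels could be checked.

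Chromosomes are folded into domains, stretches within which loci touch more often than with loci outside, and in vertebrates the edges of many domains are bound by the factor CTCF, at which loops extruded by cohesin stop. Such folding brings distant regulatory elements near the genes they act on. SMOC2, a secreted matricellular protein, and DACT2, a cytoplasmic regulator of signalling in the Dapper family, are the genes the locus was named for. The limb interzone is the band of flattened cells that marks a future synovial joint, whereas the phalange holds chondrocytes that build the cartilage model of the bone. An annotation of the build used in the lists was not used here, and stretches of the flank are therefore given by position and without gene names.

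The flank held 1285 of the 6569 fragments (19.6%), and its first fragment began at 42939737 and its last ended at 43603343. Neighbouring fragments of the locus lay 6 bp apart in 6544 of 6568 cases, the length of the ApoI site. Fragments of the flank had a median length of 316 bp, against 328 bp in the rest of the locus, and there were 19.4 and 19.0 fragments per 10 kb. The mean number of listed pairs 20 kb or more apart per fragment was 16.7 in the flank and 21.5 in the rest in the interzone library, and 10.3 and 13.9 in the phalange library. Flank fragments thus had fewer listed pairs than the rest in both libraries, and the fewest lay at the outer end of the flank. These counts are not set against distance, and fragments near an end of the locus lack listed partners beyond it. The first 110 kb of the locus had 17.9 pairs per fragment for interzone and 12.5 for phalange, also below the rest.

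The deposited value of a pair, called signal, has no stated unit. Among members it ran from 9.53e-05 to 0.168 in the interzone library with a median of 0.000309, and from 9.13e-05 to 0.253 in the phalange library with a median of 0.000345. Pairs under 5 kb apart held 81.2% of the members' signal for interzone and 92.7% for phalange, although they were 30.1% and 43.7% of the members. At 20 kb to 100 kb the median signal was 0.000273 and 0.000265, and at 200 kb or more it was 0.000267 and 0.000259. Typical signal thus changed little with distance at this range, whereas the share of possible pairs that were listed fell. Contacts were counted below as listed pairs 20 kb or more apart, 5578 for interzone and 3033 for phalange. The depth of the libraries is unknown, and all intervals cover counting error only and take pairs as independent.

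By distance alone, contact inside the flank was sparser than in the locus as a whole, in both libraries. The expected number came from the share of all possible fragment pairs of the locus that were listed at the same distance, in classes of 10 kb. In the interzone library 5578 pairs were listed where 6403 were expected, a ratio of observed to expected of 0.871 (exact Poisson 95% interval 0.848 to 0.894). In the phalange library 3033 were listed where 3730 were expected, a ratio of 0.813 (0.784 to 0.843). The direction depended on whether coverage was in the expectation. When the expectation was multiplied by the coverage of both 10 kb bins, the ratio was 1.10 in each library, so the direction against the locus turned. The coverage factors come from these same pairs, so low coverage of a stretch by itself lowers the number expected within it. Ratios with coverage factors, here and below, thus do not show contact apart from coverage. Without the last 110 kb of the flank the ratio by distance was 0.987 for interzone and 0.930 for phalange. Fragment length moved it little, to 0.879 and 0.827 when the expectation was taken by length class as well.

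Against the expectation by distance, the ratio was below 1 in every distance class. The classes were not computed with coverage factors or without the last 110 kb of the flank. In the interzone the ratio was 0.866 (0.820 to 0.914) at 20 kb to 50 kb, 0.871 (0.826 to 0.918) at 100 kb to 200 kb and 0.858 (0.816 to 0.902) at 200 kb to 500 kb. In the phalange it was 0.824 (0.761 to 0.891), 0.816 (0.759 to 0.875) and 0.799 (0.748 to 0.852) over the same classes. Beyond 500 kb only 110 and 64 pairs were listed, with ratios of 0.823 (0.676 to 0.992) and 0.680 (0.523 to 0.868). Between 20 kb and 500 kb the slope of log10 share listed on log10 distance was -0.72 ± 0.04 (SE of the fit over 48 distance classes) in the interzone flank and -0.61 ± 0.04 in the phalange flank. The slopes of the whole locus were -0.64 ± 0.01 and -0.54 ± 0.01. The neighbouring domain from 42.30 Mb to 42.94 Mb had -0.77 ± 0.04 and -0.65 ± 0.04. Flank slopes thus lay between those of the locus and of that domain in each library, untested, and the gap between the libraries was much the same in the flank as over the locus.

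**Figure D1:**
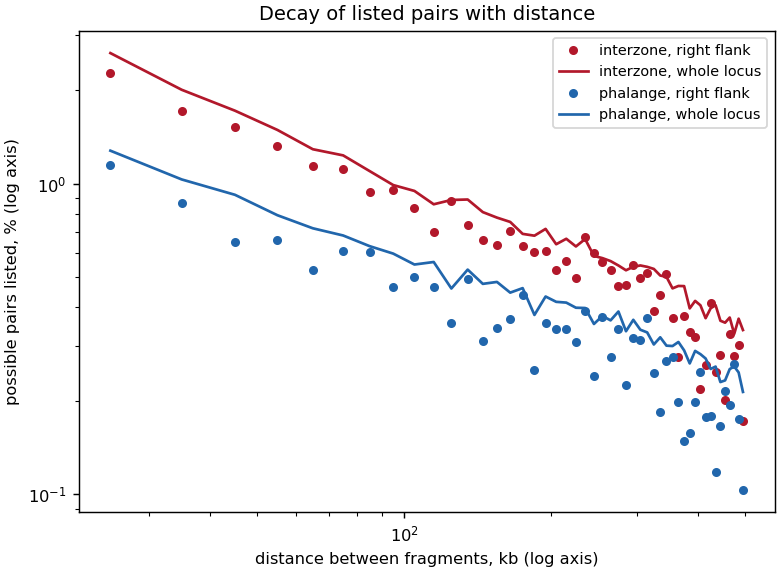
Share of possible fragment pairs that were listed (percent, log axis) against the distance between the fragments (kb, log axis) in 10 kb classes. Points are the right flank and lines the whole locus, red for the interzone and blue for the phalange library. The flank points lie mostly below the line of their own library, with ratios of 0.871 and 0.813 in all.

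Of the flank pairs 20 kb or more apart, 54.2% (3022 of 5578, Wilson 95% interval 52.9 to 55.5) spanned 100 kb or more for interzone and 57.7% (1751 of 3033, 56.0 to 59.5) for phalange. The decay of the locus gave 54.7% and 58.6% for fragments placed as in the flank. Both of these values lay inside the intervals of the measured shares.

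Set beside the other segments, the flank was 1 of 3 with a ratio below 1 by distance. The domain from 41.23 Mb to 41.63 Mb had 0.835 and 0.751, lower than the flank in both libraries. That from 41.63 Mb to 41.95 Mb had 0.890 and 0.850. With fragment length in the expectation these domains had 1.06 and 0.991, and 1.04 and 1.02, against 0.879 and 0.827 in the flank. By signal they had 0.851 and 0.729, and 1.27 and 1.60, against 0.892 and 0.825 in the flank. The left flank, at the other end of the locus, had 1.35 (1.32 to 1.39) for interzone and 1.43 (1.39 to 1.47) for phalange, and the neighbouring domain from 42.30 Mb to 42.94 Mb had 1.13 (1.10 to 1.16) and 1.14 (1.10 to 1.17). With coverage factors these became 1.05 and 1.04 in the left flank and 0.959 and 0.943 in the neighbouring domain, both below the 1.10 of the right flank. The 3 domains between 40.84 Mb and 41.95 Mb were above it, at 1.14, 1.14 and 1.24 for interzone and 1.12, 1.16 and 1.21 for phalange. No test of a difference between segments was made, since the segments were cut from the same data.

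**Figure D2:**
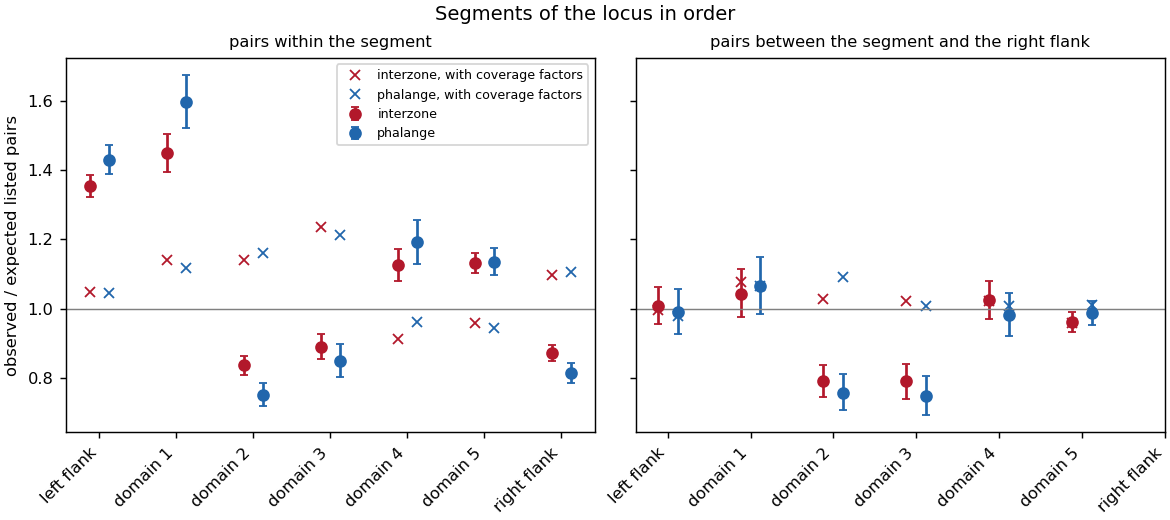
Ratio of observed to expected listed pairs 20 kb or more apart for the 7 segments of the locus in order along the chromosome, within each segment (left) and between each segment and the right flank (right). Circles with exact Poisson 95% intervals use the expectation by distance, crosses the expectation with coverage factors. In the right flank the circles lie at 0.871 and 0.813 and the crosses at 1.10.

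Contacts of the flank also reached out of it. Of all listed pairs 20 kb or more apart with an end in the flank, 35.2% (5578 of 15844, Wilson 95% interval 34.5 to 36.0) had both ends inside for interzone and 29.8% (3033 of 10185, 28.9 to 30.7) for phalange, against 36.9% and 32.7% expected from distance. With the neighbouring domain the flank shared 4481 interzone pairs, a ratio of 0.961 (0.934 to 0.990), and 3106 phalange pairs, 0.986 (0.952 to 1.02). With the left flank it shared 1407 and 918 pairs, at ratios of 1.01 (0.956 to 1.06) and 0.990 (0.927 to 1.06). The lowest ratios were with the domains from 41.23 Mb to 41.63 Mb (0.790 and 0.757) and from 41.63 Mb to 41.95 Mb (0.789 and 0.747). With coverage factors these values were 1.03 and 1.09 for the first domain and 1.02 and 1.01 for the second. With coverage factors, the ratios of the flank with the 6 other segments ran from 0.957 to 1.09. The ratio inside the flank was then 1.10 in each library, above all of these. The share of pairs with both ends inside was thus below the expected one by distance alone, and this turned with coverage factors.

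At the start of the flank, pairs that crossed 42940001 from the 100 kb before to the 100 kb after numbered 291 for interzone and 185 for phalange. Their ratios were 0.992 (0.882 to 1.11) and 1.11 (0.957 to 1.28), and 0.848 and 0.923 with fragment length in the expectation, 0.808 and 0.851 with coverage factors. Fewer contacts than expected across the limit thus showed only once fragment length or coverage was in the expectation.

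Inside the flank, the maps in 50 kb bins showed 3 stretches, which were chosen after the maps had been seen and are given without a test. The first 200 kb ran from 42940001 to 43140000 and held 308 fragments of median length 398.5 bp. The middle 350 kb ran from 43140001 to 43490000 with 732 fragments of median length 292 bp, and the remainder from 43490001 on, about 110 kb, held 245 fragments of median length 304 bp.

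The first 200 kb had more contact within itself than distance gives, 628 interzone pairs at a ratio of 1.18 (1.09 to 1.27) and 338 phalange pairs at 1.17 (1.05 to 1.30). Its fragments had the highest median length of the 3 stretches, and with fragment length in the expectation the ratios were 0.931 and 0.901. The direction therefore turned with fragment length in both libraries. The middle 350 kb had ratios of 0.955 (0.917 to 0.993) and 0.889 (0.841 to 0.939) by distance, 1.03 and 0.985 with fragment length, and 1.23 and 1.26 with coverage factors. The first and the middle stretch met at 0.973 (0.922 to 1.03) for interzone and 0.919 (0.857 to 0.985) for phalange, and at 1.01 and 1.02 with coverage factors.

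Of the 3 stretches, the last 110 kb was the poorest in contacts. The middle 350 kb was not even by distance. Its neighbouring bins 43390001-43440000 and 43440001-43490000 met at only 0.538 for interzone and 0.482 for phalange, while other bin pairs of it lay above 1. Between the middle 350 kb and the last 110 kb, 681 interzone pairs were listed where 1282 were expected, a ratio of 0.531 (0.492 to 0.573). In the phalange 368 pairs were listed where 771 were expected, 0.477 (0.430 to 0.529). Within the last 110 kb the ratios were 0.756 (0.667 to 0.853) and 0.710 (0.593 to 0.844). Fragments of this stretch had few partners anywhere in the locus: listed pairs of 20 kb or more, to all of the locus, were 0.669 of the expected number for interzone and 0.634 for phalange. At the opposite edge of the locus, the first 110 kb had 1.25 and 1.34 by the same measure. Fragments at that edge were longer and fewer, with a median of 434.5 bp and 14.9 per 10 kb against 304 bp and 21.6 per 10 kb in the last 110 kb. Relative to its own coverage, the last 110 kb contacted itself at 1.65 and 1.73 times the expected number and the middle 350 kb at 0.934 and 0.925. The coverage factors come from these same pairs and those of both bins are multiplied. Low coverage of a stretch thus by itself lowers the number expected within it, so these ratios do not show self-contact apart from coverage. What gave the low coverage of this end was not tested.

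**Figure D3:**
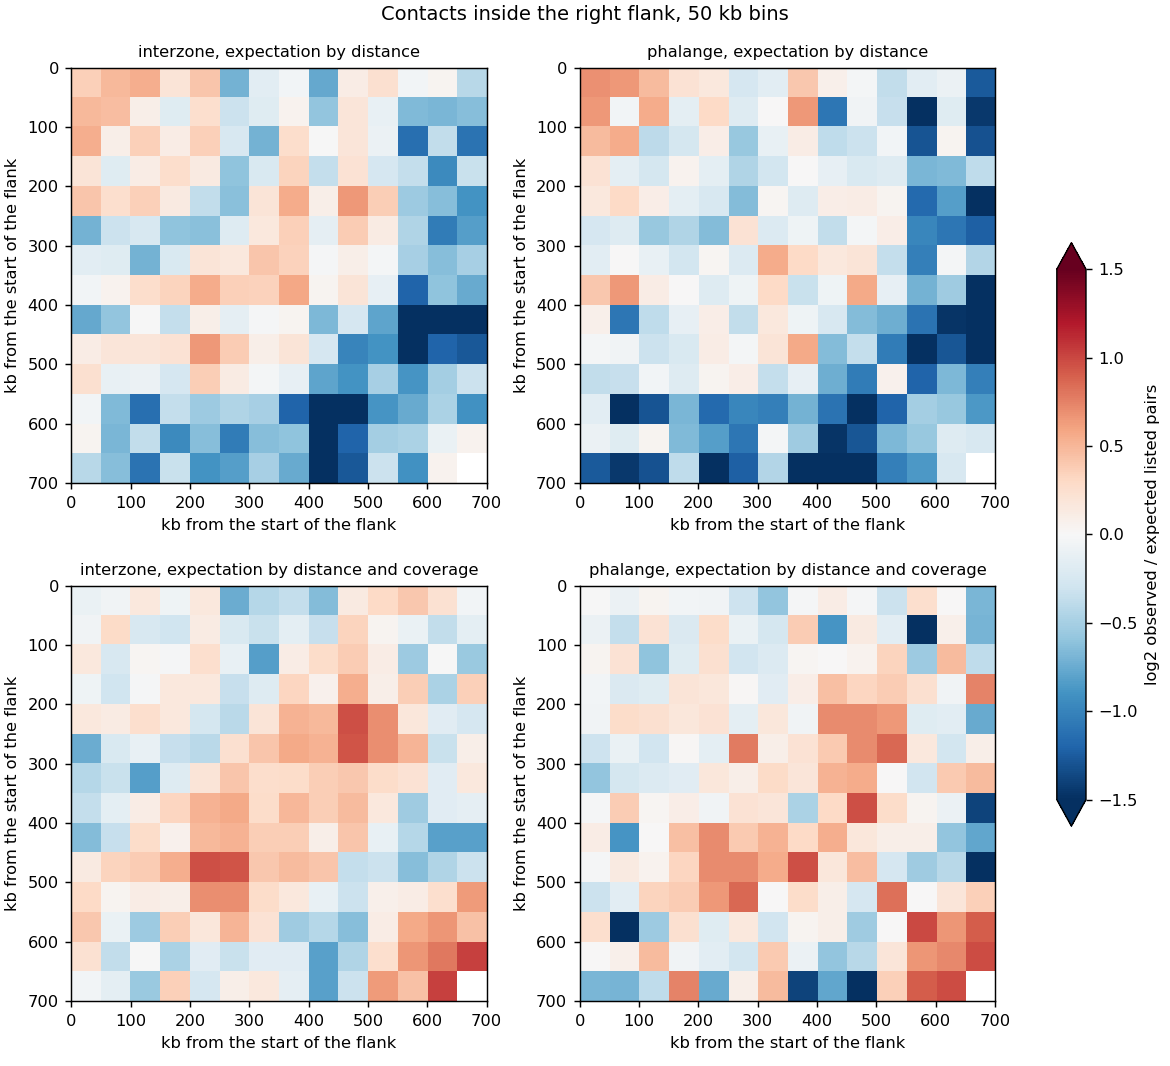
Maps of contacts inside the right flank in 50 kb bins, for the interzone (left) and phalange (right) library, with axes in kb from the start of the flank and colour for the log2 ratio of observed to expected listed pairs (red above, blue below 1, colours cut at 1.5). The upper row uses the expectation by distance, where the last rows and columns are mostly blue, and the lower row adds coverage factors, where much of the middle block and the end corner are red in both libraries. The last bin is only partly covered by the lists and has no value with itself.

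The maps of the libraries resembled each other. Across the 91 bin pairs at least 1 bin apart, the ratios of the 2 libraries had a Spearman rho of 0.780 and a Pearson r of 0.762, and with coverage factors 0.690 and 0.712. These bin pairs share fragments and coverage, and the values are descriptions. In the interzone, 10 of 91 bin pairs had an interval wholly above 1 and 29 wholly below. In the phalange these were 5 and 28 of the 90 with at least 5 expected pairs. In both libraries at once, 2 bin pairs lay above and 22 below, and 0 lay on opposite sides. These counts use the expectation by distance alone, and the same counts over the whole locus are not given here. The median ratio of these bin pairs was 0.848 for interzone and 0.844 for phalange by distance. With coverage factors the medians were 1.08 and 1.03.

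Among pairs of different bins, the richest interzone one joined 43140001-43190000 to 43390001-43440000, 250 kb away, with 117 listed pairs against 74.3 expected. Its ratio was 1.58 (1.30 to 1.89) in the interzone, against 1.08 (0.803 to 1.42) with 51 pairs for the phalange. With coverage factors the values were 1.96 and 1.64, both above 1. The next interzone bin pair joined 43140001-43190000 to 43290001-43340000 with 98 pairs, at 1.47 (1.19 to 1.79) against 0.874 (0.609 to 1.22) in the phalange. The remaining one of the highest 3 joined 42940001-42990000 to 43040001-43090000, at 1.46 (1.17 to 1.81) and 1.39 (1.02 to 1.85). It was one of the 2 bin pairs above 1 in both libraries, and its ratio fell to 1.12 and 1.03 with coverage factors.

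In the phalange the highest ratio between different bins, 1.57 (1.04 to 2.29), joined 42990001-43040000 to 43290001-43340000 with 27 pairs, where the interzone had 1.04 (0.689 to 1.498). Neighbouring bins 42940001-42990000 and 42990001-43040000 also had 1.57 (1.18 to 2.04), and 1.40 (1.13 to 1.72) in the interzone. With coverage factors their ratio turned to 0.945 in the phalange and was 0.964 in the interzone. The bin pair of 43290001-43340000 and 43390001-43440000 had 1.49 (1.16 to 1.88) in the phalange and 1.14 (0.920 to 1.40) in the interzone, and 1.96 and 1.39 with coverage factors.

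The 3 poorest bin pairs of each library all had an end in the last 110 kb. In the interzone they joined 43340001-43390000 to the bin from 43590001 on (8 pairs, 0.278, interval 0.120 to 0.548) and to 43540001-43590000 (27 pairs, 0.317, 0.209 to 0.461), and 43390001-43440000 to 43490001-43540000 (36 pairs, 0.326, 0.228 to 0.451). The phalange had 0.224, 0.361 and 0.311 in these same places. With coverage factors the interzone ratios rose to 0.569, 0.567 and 0.643, still below 1. In the phalange the lowest ratios rested on 2, 3 and 2 listed pairs, at 0.112 (0.0136 to 0.405), 0.182 (0.0376 to 0.533) and 0.198 (0.0240 to 0.716). They joined 43390001-43440000 to the bin from 43590001 on, 42990001-43040000 to 43490001-43540000, and 43290001-43340000 to the bin from 43590001 on. With coverage factors the phalange ratios were 0.288, 0.271 and 0.381. The interzone had 0.415, 0.631 and 0.591 there by distance. The phalange intervals at such numbers are wide and give little on the size of the deficit.

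Each bin pair was next compared between the libraries, which asks whether its share of listed pairs differed between these 2 libraries. A two-sided Fisher's exact test set the number listed in each 50 kb bin pair against all others at its bin distance, over the 1695 bin pairs of the locus with at least 20 listed pairs, with Benjamini-Hochberg adjustment over all of them. It compares 2 libraries and not 2 tissues. Of the 93 bin pairs of the flank that were tested, 0 had an adjusted p below 0.05, against 1 of 1695 over the locus (0.0590%). The smallest adjusted p in the flank was 0.837. At an unadjusted p below 0.05 there were 3 of 93 (3.23%) in the flank and 94 of 1695 (5.55%) over the locus. Log2 ratios of interzone over phalange share ran from -0.79 to 0.90 in the flank with a median size of 0.26, on a median of 71 listed pairs per bin pair. A p above the threshold does not show that the libraries fold alike, and since the test is relative to the other bin pairs at a distance, a change that most of them shared would not show.

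The 3 bin pairs at an unadjusted p below 0.05 included both of the richest interzone contacts. Those contacts had been picked as highest in the interzone from the same counts that the test uses, so this overlap is in part built in. The contact of 43140001-43190000 with 43290001-43340000 held 2.01% of interzone pairs at its distance (98 of 4865) and 1.23% of phalange pairs (35 of 2836), a log2 ratio of 0.69 (Fisher's exact p = 0.0110, adjusted 0.837). The contact of 43140001-43190000 with 43390001-43440000 held 3.41% (117 of 3433) and 2.30% (51 of 2215), a log2 ratio of 0.56 (Fisher's exact p = 0.0197, adjusted 0.851). The contact of 42990001-43040000 with 43040001-43090000 held 1.05% and 1.45%, a log2 ratio of -0.47 (Fisher's exact p = 0.0427, adjusted 0.851). None of the 3 passed the adjustment.

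By size of the ratio, the largest interzone excesses were inside the bin 43290001-43340000 (34 against 9 pairs, log2 ratio 0.90, adjusted p = 0.943) and inside 43040001-43090000 (34 against 10, 0.75, adjusted p = 0.994), both by Fisher's exact test. The next was the contact with a log2 ratio of 0.69 given above. The largest phalange excesses were between 42940001-42990000 and 43340001-43390000 (19 against 23 pairs, log2 ratio -0.79), inside 43390001-43440000 (26 against 20, -0.59) and between 43040001-43090000 and 43240001-43290000 (29 against 27, -0.59). These 3 had adjusted p-values of 0.975, 1 and 0.975 by the same test.

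Boundaries inside the flank were sought with the insulation score, the summed signal of the pairs that cross a 10 kb bin within 100 kb on either side, averaged over the bin pairs of that square, as log2 over the median of the locus. A low score marks a place that few contacts cross, without regard to how many fragment pairs were possible there. The score could be computed for 56 bins, up to 43500000. It had 5 minima of prominence 0.1 or more in each library, against 27 for interzone and 26 for phalange over the whole locus. Of the 5 in the flank, 2 lay within 1 bin of each other in the 2 libraries. How many would do so by chance was not tested. One of these was the start of the flank itself, 42940001-42950000, where the choice of the flank had fixed a minimum, so that only 1 shared minimum lay inside. The start had scores of -0.43 for interzone and -0.46 for phalange and prominences of 0.76 and 0.68. The other lay at 43170001-43180000 in the interzone (score -0.13, prominence 0.40) and at 43180001-43190000 in the phalange (score -0.25, prominence 0.21).

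With listed pairs in place of signal, each library again had 5 minima, 2 of them shared. In the interzone the bins at 42930001 and 42940001 then tied at a score of -0.34, below the bins on either side. This tied low was not counted as a minimum inside the flank. The minimum of the phalange lay at 42950001-42960000. One was at 43170001-43180000 in each library, with prominences of 0.53 and 0.42. Pairs that crossed 43170001 within 100 kb had ratios of 0.795 (0.712 to 0.886) for interzone and 0.786 (0.677 to 0.908) for phalange. With coverage factors these were 0.854 and 0.984. The other lay at 43020001-43030000, with prominences of 0.12 and 0.11, close to the limit of 0.1.

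Other minima had no match within 1 bin in the other library. In the interzone they lay at 43040001 (score -0.29, prominence 0.30), 43310001 (0.00 and 0.15) and 43440001 (-0.56 and 0.35). In the phalange they lay at 43060001 (score -0.20, prominence 0.14), 43140001 (-0.04 and 0.12) and 43240001 (-0.29 and 0.49). The interzone minimum at 43040001 and the phalange one at 43060001 lay close together, 100 kb and 120 kb from the start of the flank. With listed pairs the prominence at 43240001 was 0.23, and at 43440001 it was 0.22. The minimum at 43040001 then lay at 43050001 with 0.76, and that at 43060001 lay at 43070001 with 0.17. The phalange had none at 43140001. Against distance, crossing pairs at 43050001 had ratios of 1.05 (0.928 to 1.18) for interzone and 1.23 (1.06 to 1.42) for phalange, so no deficit showed. With fragment length in the expectation these were 0.847 and 0.976, and with coverage factors 0.894 and 1.06. By distance the ratios were 1.02 and 1.04 at 43310001, and 1.00 and 0.863 at 43140001. At 43440001 the score of the other library was low as well, -0.34, and crossing pairs had nearly equal ratios, 0.475 (0.420 to 0.535) and 0.478 (0.405 to 0.559). With coverage factors these were 0.801 and 0.915. By distance the fall was thus present in both libraries, and in the phalange the score went on falling to -0.61 at 43490001, the last bin scored. A minimum cannot be called at the last bin. The interzone score there was -0.21, and its prominence of 0.35 at 43440001 was set by this end of the scored range. At 43240001 the libraries stood on opposite sides of the locus median, with 0.19 for interzone and -0.29 for phalange. Crossing pairs there numbered 454 and 195, with ratios of 1.22 (1.11 to 1.34) and 0.927 (0.801 to 1.07), and 1.33 and 1.08 with coverage factors. This position lies between the bins 43140001-43190000 and 43290001-43340000, whose contact had the smallest unadjusted p above, so the 2 observations share pairs. The position was singled out after its values had been seen, and the difference was not tested.

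**Figure D4:**
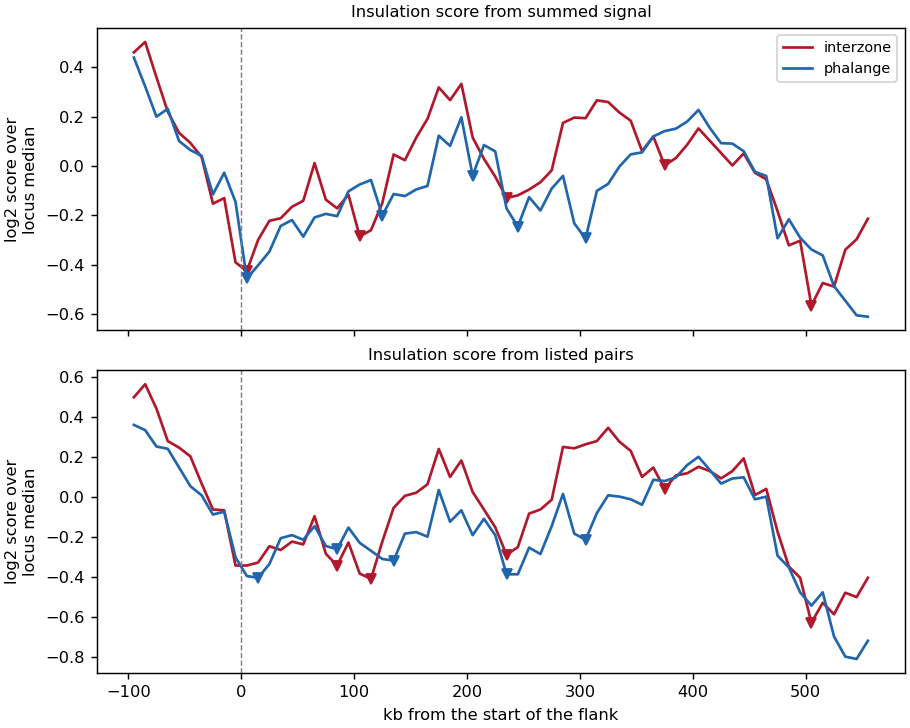
Insulation score (log2 over the locus median) of 10 kb bins against the distance from the start of the flank in kb, from summed signal (top) and from listed pairs (bottom), red for the interzone and blue for the phalange library. Triangles are minima of prominence 0.1 or more inside the flank, and the dashed line marks its start. The curves run together with a Pearson r of 0.710 for signal and 0.826 for listed pairs over 56 overlapping bins, and stand well apart at 300 kb.

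Coverage by pairs inside the flank was uneven in the same places in both libraries. Over 67 bins of 10 kb, listed pairs of 20 kb or more per fragment had a median of 8.89 (4 to 26.7) for interzone and 5.08 (1.79 to 13.3) for phalange, with a Spearman rho of 0.888 between the libraries. Only pairs with both ends inside the flank are counted and no distance expectation is used. Bins near either edge therefore lack near partners beyond it, in both libraries alike. The richest bins were 43300001-43310000, with 26.7 and 13.3 pairs per fragment on 3 fragments of mean length 4060 bp, and 43070001-43080000, with 19.0 and 11.6 on 8 fragments of mean length 1206 bp. Next came 43270001-43280000 for interzone (16.0) and 43310001-43320000 for phalange (9.23). The poorest were 43030001-43040000, with 4 and 1.94 pairs per fragment, and bins of the last 110 kb. In the interzone these were 43580001-43590000 (4.41) and 43570001-43580000 (4.50), and in the phalange 43570001-43580000 (1.79) and 43500001-43510000 (1.82).

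**Figure D5:**
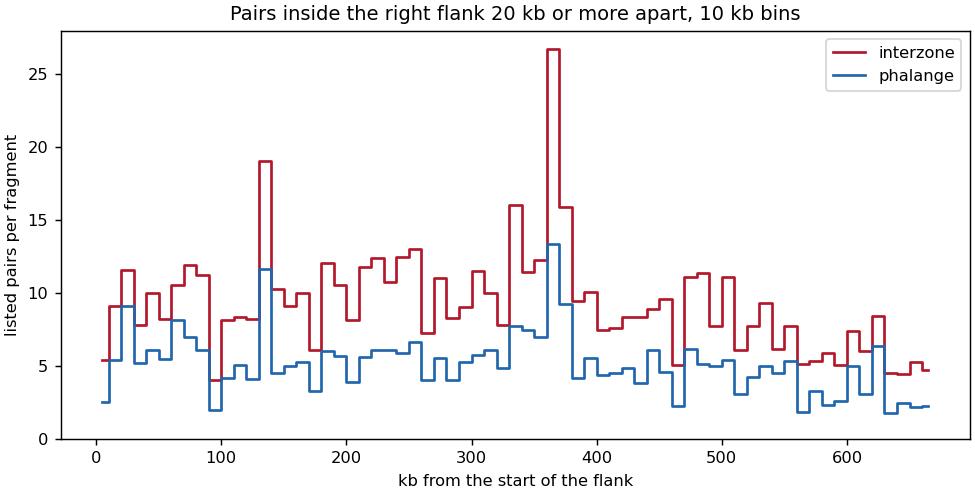
Listed pairs per fragment (both ends inside the right flank, 20 kb or more apart) in 10 kb bins against the distance from the start of the flank in kb, red for the interzone and blue for the phalange library. Peaks at 130 kb and 360 kb and the low values of the last 110 kb occur in both libraries.

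Long fragments had more partners. In the interzone, flank fragments under 100 bp had a mean of 1.57 listed pairs of 20 kb or more, those of 400 bp to 800 bp had 22.5 and those of 800 bp or more had 31.4. The phalange means were 1.09, 13.1 and 22.1. In each of 4 length classes the flank had fewer partners than the rest of the locus, from 0.754 to 0.814 of its mean for interzone and from 0.740 to 0.844 for phalange. These counts are not set against distance, and the flank lies at an end of the locus, without listed partners beyond it. Of the 1285 flank fragments, 118 had 0 such pairs for interzone and 155 for phalange, and 115 and 141 of these were under 100 bp. The same count was not made over the rest of the locus, so these numbers do not set the flank apart.

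Fragment pairs listed in both libraries were counted by distance. At 100 kb or more, 48 members were common to both, 1.59% of the 3022 interzone and 2.74% of the 1751 phalange pairs. Over all pairs of the locus from 100 kb to 670 kb apart, these shares were 1.35% and 2.11%. Under 5 kb, 2018 members were common, 64.0% and 66.3% of the lists, against 65.7% and 66.4% over the locus. The common long-range pair of highest signal joined 43213514-43213588 to 43596151-43596217, 383 kb apart, with 0.00162 for interzone and 0.00179 for phalange. Its fragments were 75 bp and 67 bp long and had 7 and 3 listed partners of 20 kb or more in the interzone library, against 4 and 2 in that of the phalange. The next joined 43062896-43063417 to 43355675-43356974 (0.000549 and 0.000695), 42993150-42993275 to 43209414-43209989 (0.000538 and 0.000577), 43053127-43053485 to 43162696-43163156 (0.000541 and 0.000545) and 43124887-43125656 to 43565333-43565807 (0.000512 and 0.000565). The median of all members at this range was 0.000263 for interzone and 0.000259 for phalange. The part of the low partner numbers in the high signal of the first pair was not tested.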

How the data were processed

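The authors deposited, per the file headers, a list of restriction fragment pairs with a value named signal for each of 2 libraries, interzone and phalange (the phalange list has no header line). The submitters' processing notes name galGal5, BWA and FastQC without role or order. The normalization of the deposited signal, duplicate removal and filters were not given in the sources used here, and depth is unknown. Coordinates are those of the lists.

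Fragments of both lists were numbered by start, and neighbouring fragments left out. Pairs were assigned by fragment midpoints. Listed pairs 20 kb or more apart were counted, and set against the share of possible fragment pairs listed at the same distance over the locus (10 kb classes). Coverage factors were the observed over expected pairs of each 10 kb bin, applied once without further balancing, with the total at each distance kept. Fisher's exact tests, on pairs 20 kb or more apart and including pairs within a bin, used a pseudocount of 0.5 for log2 ratios only. Insulation was computed from the signal of all pairs but neighbours in 100 kb diamonds. Python 3.11.15, numpy 2.4.6, pandas 2.3.3 and scipy 1.17.1 were used. The code was tested on simulated data. In a first simulation, with changes planted in many bin pairs, the Fisher's exact test also called unchanged ones. The planting was then limited to few bin pairs per distance and the test was kept. The test is thus reliable only where few bin pairs of a distance change.

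Named bin pairs are the 3 highest and 3 lowest ratios per library between different bins (at least 5 expected), the 3 largest and smallest log2 ratios and all minima; named 10 kb bins are the 3 richest and poorest, and named fragment pairs the 5 common ones at 100 kb or more with the largest product of signals. The flank, these rules and the tests were chosen with earlier results of these data known. Alternatives covered measure, expectation, bins, limits and edges.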

Additional observations from a re-analysis of the deposited data

Results flagged for a closer look

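Neighbouring restriction fragments, which were left out of every comparison, held 89.1% of all signal inside the flank in the interzone (1226 pairs) and 87.9% in the phalange (1225 pairs). They are given because they lie outside the measurements used and carry most of the signal, and no control library was analysed here. Over the whole locus the shares were 87.4% and 87.0%. Pairs with 1 fragment in between, which were kept as members, held 61.4% of the members' signal in the interzone and 71.8% in the phalange.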

How the results depend on the processing

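No paired analysis was possible because each tissue has 1 library. The expectations by fragment length and per 10 kb bin pair, coverage factors in the correlation and the removal of the last 110 kb were chosen after seeing the data. The ratio of observed to expected pairs, 0.871 in the interzone and 0.813 in the phalange, turned to 1.10 in both with coverage factors (1.098 and 1.105). It rose to 0.918 and 0.872 without bins of few pairs, to 0.987 and 0.930 without the last 110 kb, and to 0.896 in the interzone by signal without the highest 0.1% of pairs. The share at 100 kb or more, 54.2% and 57.7%, was 52.3% and 55.7% without 50 kb at each end, 52.5% and 55.8% without the last 110 kb, 41.2% and 44.7% with pairs from 5 kb on, and 29.4% and 32.3% at a limit of 200 kb, which by construction counts fewer. Neither slope left its interval under the 6 alternatives run. The correlation of 0.780 was 0.551 by signal, 0.550 without the highest pairs, 0.722 without bins of few pairs, 0.697 without the ends, 0.569 in 25 kb bins, 0.842 in 100 kb bins and 0.690 with coverage factors. The number of flank bin pairs past the threshold was 0 in all 7 settings of Fisher's exact test. At an unadjusted p below 0.05 there were 1 of only 5 tested in 10 kb bins, 4 of 173 in 25 kb bins and 4 of 28 in 100 kb bins. Over the locus these were 2 of 59, 72 of 1467 and 43 of 629. Against all listed pairs there were 11 of 93, and 126 of 1695 over the locus. With at least 40 listed pairs there were 3 of 85 and 54 of 860, and without bins of few pairs 5 of 87 and 87 of 1622. Whether the flank share lay above or below that of the locus thus depended on the setting. Past the threshold, the number over the locus was 0 in 10 kb and 100 kb bins, 2 in 25 kb bins, 3 against all listed pairs, and 1 otherwise. Minima numbered 10 and 14 (6 shared) with a 50 kb diamond and 2 and 2 (0 shared) with a 200 kb diamond. Without bins of few pairs they numbered 7 and 6 (2 shared), and the phalange had 3 at a prominence of 0.2. The phalange ratio of the neighbouring bins 42940001 and 42990001 turned from 1.57 to 0.945 with coverage factors. Of 87 further values of named items under alternatives, 57 held, 29 moved and 1, that pair of bins, turned. Log2 ratios with at least 40 listed pairs and prominences at a limit of 0.2 could not change, so these held by construction. Among the ratios that held, the phalange one of 0.112 was 0.288 with coverage factors, inside its wide interval of 0.0136 to 0.405. A named minimum that was not found under an alternative gave no value and is outside these 87. With the 200 kb diamond only the interzone minimum at 43170001 had a value. The interzone minimum at 42940001 had none with either other diamond. With listed pairs it had none either, since its bin tied with the bin before it. A correlation counted as moved beyond 0.05, and log2 ratios and prominences beyond 0.1. Where no construction is named, the cause was not tested.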
